A study of Oryza sativa with 12 samples.

Results

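The genes described here are the 6 rice genes of the replicative MCM helicase, OsMCM2, OsMCM3, OsMCM4, OsMCM5, OsMCM6 and OsMCM7. They were found by matching these names to the synonyms of genes in the reference gene table and then to the probe sets of the Affymetrix rice array through the platform annotation. All 6 were measured, each by 1 probe set, among 17905 genes with at least 1 probe set of a single symbol and 57194 tested probe sets. No member was lost to a filter on low values, because none was applied.

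Young rice panicles were taken at a length of 2 mm, when inner floral organs begin to form, and at 5-7 mm, when organ development is advanced. Each length was sampled from the osmads1 mutant and from wild type, which gave 4 groups of 3 biological replicates on 12 arrays. The labels name the mutant osmads1 only, with no allele or genetic background. All plants grew in a paddy field without treatment, and how many panicles made up a replicate is not given. OsMADS1 encodes a SEPALLATA-type MADS-box transcription factor of floret meristem and floral organ identity.

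MCM proteins form a ring of 6 related ATPases. The origin recognition complex, CDC6 and CDT1 load this ring onto DNA before S phase, and CDC45 and GINS then join it to make the helicase that opens the double helix at the replication fork. MCM transcripts are abundant in dividing tissue and scarce in tissue that has stopped dividing, and E2F transcription factors, which the retinoblastoma protein restrains, induce them around the start of S phase in animals and plants. In a young panicle the dividing cells lie in the meristems and in the growing primordia of the florets.

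The 6 genes lie on 5 chromosomes. OsMCM2 (LOC4350526) is on chromosome 11, OsMCM4 (LOC107275673) on chromosome 1, OsMCM5 (LOC4331016) on chromosome 2 and OsMCM7 (LOC4352514) on chromosome 12. OsMCM3 (LOC4339099) and OsMCM6 (LOC4338176) are both on chromosome 5. Chromosomes are those of assembly ASM3414082v1, and the array's probes were designed on older sequence.

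Values are log2 probe set levels, so that 1 unit is a change by a factor of 2, and are given per array or as mean ± SD (n = 3). A genotype difference is the osmads1 mean less the wild-type mean, in log2 units ± SE, and a gene was called when its limma p-value, adjusted by Benjamini-Hochberg over all 57194 probe sets, was under 0.05. The OsMADS1 probe set, which checks the labels, read 4.27 to 5.25 in osmads1 and 10.57 to 10.93 in wild type at 2 mm. At 5-7 mm it read 3.49 to 4.96 and 11.48 to 11.61. The median level of an array lay between 4.1 and 4.13 for 2 mm panicles and between 4.93 and 5.004 for 5-7 mm panicles, so the scales of both lengths differed. Replicate arrays of a group correlated at 0.995 or more across probe sets.

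At 2 mm, all 6 MCM genes fell in osmads1, by 1.65 to 1.80-fold. The level of every member was lower on each of the 3 osmads1 arrays than on any of the 3 wild-type arrays. Among all 17905 genes, each represented by its brightest probe set, 12.1% were called lower and 10.2% higher at this length, and in 25.5% the 3 osmads1 arrays lay below the 3 wild-type arrays. RNA came from whole panicles, so fewer dividing cells and less transcript per cell cannot be told apart here or in any result below.

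OsMCM2, whose yeast and human counterparts bind histones as well as DNA, had the highest readings of the 6 probe sets. It read 10.16, 9.87 and 9.93 in osmads1 replicates 1 to 3 and 10.75, 10.90 and 10.85 in wild type at 2 mm. The difference was -0.85 ± 0.091 (adjusted p = 4.34e-05), which ranked 196 among 17905 genes ordered from the most negative difference.

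OsMCM3, OsMCM5 and OsMCM7 had similar differences. In yeast, the C-terminal end of MCM3 stimulates the ORC and CDC6 proteins that load the ring. OsMCM3 read 9.16, 8.76 and 9.08 in osmads1 and 9.80, 9.88 and 9.64 in wild type, a difference of -0.77 ± 0.12 (adjusted p = 0.000819). MCM5 forms with MCM2 the gate through which DNA enters the ring in yeast. OsMCM5 read 8.66, 8.31 and 8.49 in osmads1 and 9.23, 9.34 and 9.14 in wild type (-0.75 ± 0.13, adjusted p = 0.00204). MCM7 stands next to MCM4 in the ring and shares an ATP site with it. OsMCM7 read 8.29, 7.95 and 8.08 in osmads1 and 8.77, 8.97 and 8.81 in wild type (-0.75 ± 0.10, adjusted p = 0.000382).

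OsMCM4 and OsMCM6 completed the set. The N-terminal tail of yeast MCM4 is a main target of the kinase that activates the loaded ring. OsMCM4 read 8.42, 8.11 and 8.26 in osmads1 and 8.89, 9.06 and 8.999 in wild type, a difference of -0.72 ± 0.095 (adjusted p = 0.000235). MCM6 is the subunit to which the loading factor CDT1 binds in human cells. OsMCM6 read 7.51, 7.12 and 7.34 in osmads1 and 7.996, 8.11 and 8.03 in wild type (-0.73 ± 0.11, adjusted p = 0.000624). For both genes the closest osmads1 and wild-type arrays, osmads1 replicate 1 and wild-type replicate 1, were still apart.

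**Figure D1:**
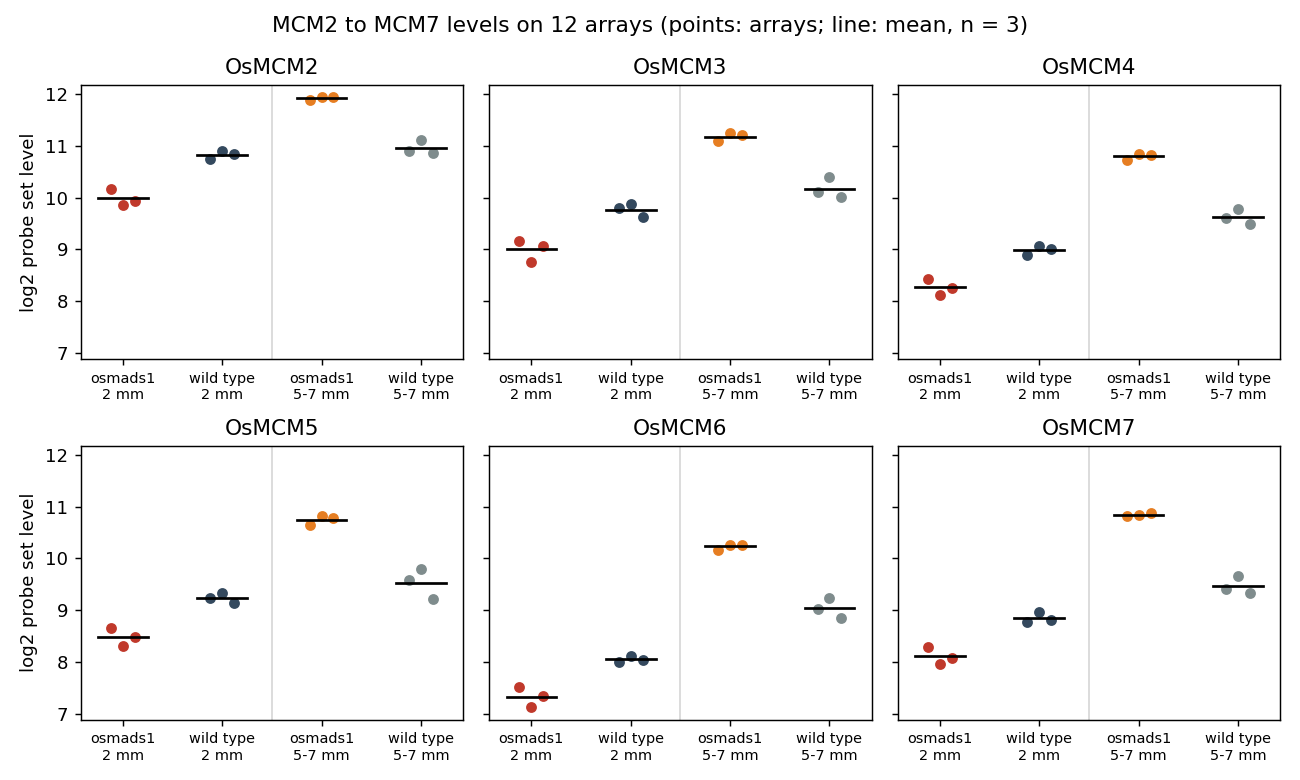
Log2 probe set level of OsMCM2 to OsMCM7 (vertical axis, 1 panel a gene) on the 12 arrays, by genotype and panicle length; points are arrays and lines are group means (n = 3). In all 6 panels the osmads1 points lie below the wild-type points at 2 mm and above them at 5-7 mm.

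At 5-7 mm, the genotype difference ran the other way for all 6 genes, which rose in osmads1 by 1.95 to 2.60-fold. Again no member's groups overlapped, with the 3 osmads1 arrays above the 3 wild-type arrays. In the whole gene set 13.3% were called higher and 19.4% lower at this length, and in 22.4% the osmads1 arrays lay above the wild-type arrays.

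OsMCM7 had the largest difference of the 6. It read 10.82, 10.84 and 10.89 in osmads1 and 9.41, 9.67 and 9.34 in wild type, a difference of 1.38 ± 0.10 (2.60-fold, adjusted p = 9.05e-07), rank 82 among 17905 genes from the most positive. The 3 osmads1 arrays lay within 0.1 of one another, while wild-type replicate 2 stood above its fellows. OsMCM4 and OsMCM6, which together with MCM7 form a subcomplex with helicase activity in mammals, had smaller differences. OsMCM4 read 10.73, 10.85 and 10.82 in osmads1 and 9.61, 9.77 and 9.50 in wild type (1.17 ± 0.095, adjusted p = 1.58e-06). OsMCM6 read 10.17, 10.27 and 10.26 in osmads1 and 9.03, 9.24 and 8.85 in wild type (1.19 ± 0.11, adjusted p = 4.43e-06).

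OsMCM5 read 10.65, 10.82 and 10.79 in osmads1 and 9.59, 9.79 and 9.21 in wild type, a difference of 1.22 ± 0.13 (adjusted p = 2.04e-05). Its wild-type arrays were spread more widely than those of the other members, with an SD of 0.29. OsMCM3 read 11.09, 11.24 and 11.21 in osmads1 and 10.11, 10.39 and 10.01 in wild type (1.01 ± 0.12, adjusted p = 4.55e-05). OsMCM2 read 11.90, 11.94 and 11.94 in osmads1 and 10.91, 11.11 and 10.87 in wild type (0.96 ± 0.091, adjusted p = 6.35e-06). OsMCM2 thus had the most negative difference at 2 mm and the smallest positive one at 5-7 mm.

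**Figure D2:**
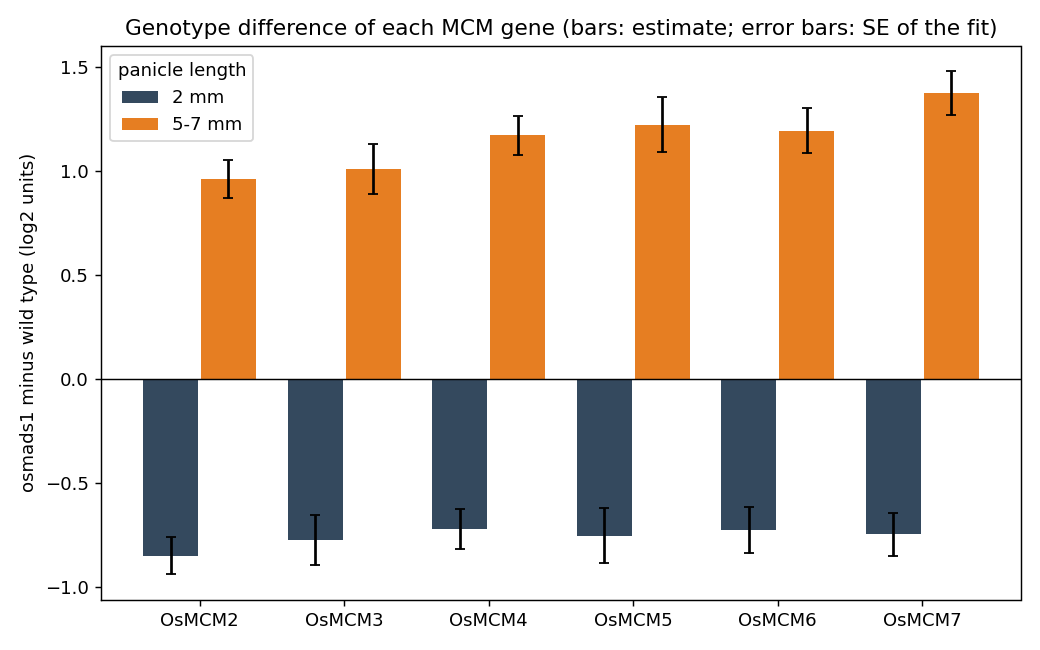
Difference of the log2 level, osmads1 minus wild type (vertical axis), of each MCM gene (horizontal axis) at 2 mm and 5-7 mm; bars are estimates and error bars are SE of the fit. The 2 mm bars run from -0.85 to -0.72 and the 5-7 mm bars from 0.96 to 1.38.

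The change of the genotype difference between lengths was tested as an interaction, the 5-7 mm difference minus the 2 mm difference. All 6 genes passed, with estimates of 1.78 ± 0.17 for OsMCM3 (adjusted p = 6.52e-06), 1.81 ± 0.13 for OsMCM2, 1.89 ± 0.13 for OsMCM4, 1.92 ± 0.15 for OsMCM6, 1.97 ± 0.19 for OsMCM5 and 2.12 ± 0.15 for OsMCM7 (adjusted p = 4.01e-07). In the whole gene set 17.2% had a positive and 19.2% a negative change of this kind. The 6 genes ranked from 73 (OsMCM7) to 128 (OsMCM3) among 17905 genes ordered from the most positive estimate. Being called lower at 2 mm and called higher at 5-7 mm was a feature of 3.57% of all genes and of 6 of the 6 MCM genes.

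The estimates of the 6 genes lay closer together at 2 mm than at 5-7 mm, which was not tested between the lengths. For each of the 15 pairs, the level difference between both genes on an array was compared between genotypes, which cancels what the array does to both. At 2 mm the genotype differences of 2 members were at most 0.13 apart, and in 3 of 15 pairs the genotypes did not overlap. At 5-7 mm they were up to 0.41 apart, between OsMCM2 and OsMCM7, and 10 of 15 pairs did not overlap. The pairs share genes and arrays, so these counts are not independent. Pairs of other genes were not compared in this way, so no general share can be set beside the counts. With 3 arrays against 3, a two-sided exact permutation test cannot go below p = 0.1, so no pair could pass. The smallest adjusted p over these 30 comparisons was 0.231. The test therefore cannot decide whether the members differ.

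The 6 genes also moved together from one replicate to the next. At 2 mm, osmads1 replicate 1 was highest and osmads1 replicate 2 lowest of its group in 6 of 6 genes, with mean deviations from the group mean of 0.17 and -0.17. Wild-type replicate 2 at 2 mm was highest in 6 of 6. At 5-7 mm, wild-type replicate 2 was highest (0.20) and wild-type replicate 3 lowest (-0.17) in 6 of 6, while the array medians of that group were 4.97 to 5.004. Correlations of the deviations between 2 members ran from 0.78 to 0.97 with a median of 0.92 over the 15 pairs. These are descriptions over 12 arrays, and the points share an array and its normalization. The same counts and correlations were not computed for other genes. Whether such joint movement is particular to the MCM genes was therefore not tested.

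**Figure D3:**
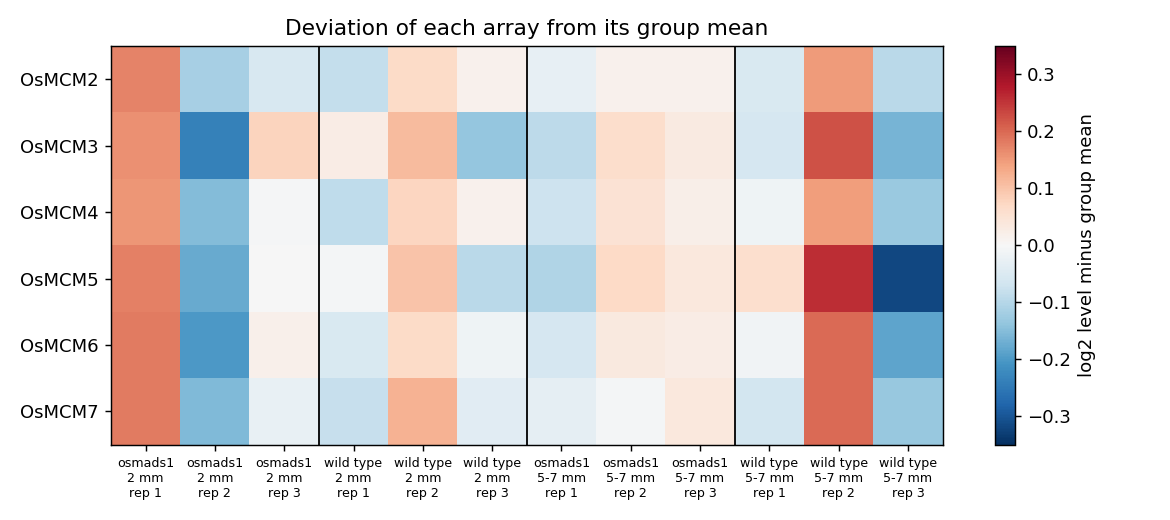
Deviation of each array's log2 level from its group mean (colour, red above and blue below) for the 6 MCM genes (rows) on the 12 arrays (columns, grouped by genotype and length). The columns are nearly uniform, most clearly osmads1 replicates 1 and 2 at 2 mm and wild-type replicates 2 and 3 at 5-7 mm.

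Between the lengths, the MCM genes rose in osmads1, while in wild type the direction depended on how the lengths were scaled. In the deposited values the median probe set was 0.61 higher at 5-7 mm in both genotypes, and 81.9% of genes in wild type and 78.2% in osmads1 were called higher, so a positive difference is no finding by itself. In osmads1 the 6 genes were 1.94 (OsMCM2) to 2.91 (OsMCM6) higher at 5-7 mm, which is 1.33 to 2.30 above the median shift. All 6 were also called higher after quantile normalization (1.37 to 2.27) and after median centring of all arrays (1.08 to 2.05). In wild type the deposited difference ran from 0.13 ± 0.091 for OsMCM2 (adjusted p = 0.205) to 0.99 ± 0.11 for OsMCM6 (adjusted p = 2.07e-06), and 4 of 6 genes were called higher. Relative to the median shift, it ran from -0.48 for OsMCM2 to 0.38 for OsMCM6. After quantile normalization the wild-type difference of OsMCM2 was -0.43 (adjusted p = 0.00162).

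Ranks within an array do not depend on a shift or stretch of its scale. OsMCM6 stood at percentile 79.8 ± 1.3 of all probe sets in osmads1 at 2 mm and at 95.3 ± 0.18 at 5-7 mm, against 85.5 ± 0.56 and 88.0 ± 1.4 in wild type. OsMCM7 went from percentile 86.0 to 97.4 in osmads1 and from 91.2 to 91.1 in wild type. OsMCM2, near the top of the range throughout, went from 96.6 to 99.2 in osmads1 and from 98.5 to 97.7 in wild type. In the deposited levels each gene had the order osmads1 at 2 mm, wild type at 2 mm, wild type at 5-7 mm, osmads1 at 5-7 mm. The 2 wild-type groups, neighbours in that order, overlapped for OsMCM2 and OsMCM5.

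**Figure D4:**
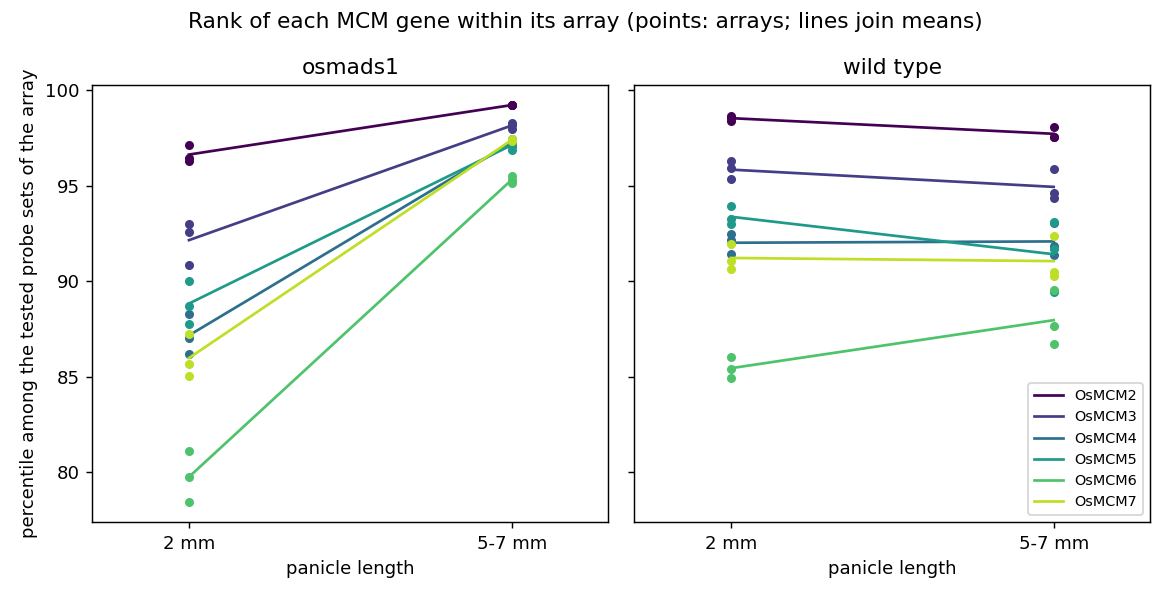
Percentile of each MCM gene among the tested probe sets of its array (vertical axis) at 2 mm and 5-7 mm (horizontal axis), in osmads1 (left) and wild type (right); points are arrays and lines join group means. All 6 lines rise in osmads1, OsMCM6 from 79.8 to 95.3, while in wild type OsMCM6 rises from 85.5 to 88.0 and OsMCM2 declines from 98.5 to 97.7.

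MCM8 and MCM9, relatives that act in DNA repair and meiotic recombination rather than in the replicative ring, had other values. MCM8 differed by 0.090 ± 0.13 at 2 mm (adjusted p = 0.78) and by -0.065 ± 0.13 at 5-7 mm (adjusted p = 0.78), at group means of 3.27 to 4.08. The upper quartile of reporter control probe sets, for transcripts foreign to rice, was 3.302 at 2 mm and 3.88 at 5-7 mm, so MCM8 was close to background. MCM9 differed by 0.16 ± 0.080 at 2 mm (adjusted p = 0.265) and rose by 0.26 ± 0.080 at 5-7 mm (adjusted p = 0.0343). MCM9 kept this call when osmads1 replicate 2 was dropped, and failed it when any other single array of that length was (adjusted p of at most 0.124, on dropping wild-type replicate 3). Its other probe sets gave 0.22 and -0.11. Neither gene passed the interaction test.

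Genes that load the MCM ring had lower levels at 2 mm, and some had higher levels at 5-7 mm. Of the 5 measured subunits of the origin recognition complex, which marks origins, 0 were higher and 5 lower at 2 mm (median -0.36), and 3 were higher and 0 lower at 5-7 mm (median 0.66), against medians of -0.017 and -0.017 over all genes. Of all genes 12.1% were called lower at 2 mm and 13.3% higher at 5-7 mm. ORC3 had values much like those of the MCM genes, -0.86 ± 0.13 at 2 mm (adjusted p = 0.000781) and 1.35 ± 0.13 at 5-7 mm (adjusted p = 9.21e-06). ORC4 (-0.36 and 0.97) and ORC5 (-0.49 and 0.66) passed at both lengths, and ORC1 passed at 2 mm (-0.36) but not at 5-7 mm (0.25, adjusted p = 0.0614). ORC4 held its 2 mm call on dropping osmads1 replicate 1, but not on dropping any of the 5 remaining 2 mm arrays in turn (adjusted p of at most 0.152, for osmads1 replicate 2). Its other probe set gave -0.19 at 2 mm (adjusted p = 0.346) and 0.94 at 5-7 mm (adjusted p = 3.69e-05), and the 2 mm call also failed after median centring (0.0613) and with the 6 arrays of that length alone (0.0665). ORC5 failed at 2 mm when wild-type replicate 1, wild-type replicate 2 or osmads1 replicate 2 was dropped (at most 0.0638), and ORC1 when either replicate 2 was (at most 0.0596). ORC6, CDC6 and CDT1 were not analysed here.

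Genes of the replication fork moved in part with the helicase. Of 17 measured genes for the sliding clamp PCNA, its loader RFC, the single-strand binding protein RPA, DNA polymerase delta and the flap nucleases FEN1A and FEN1B, 0 were higher and 13 lower at 2 mm (median -0.45), and 11 were higher and 1 lower at 5-7 mm (median 0.49). Called both lower at 2 mm and higher at 5-7 mm were 11 of the 17, against 3.57% of all genes. The shares of all genes were 12.1% lower at 2 mm, and 13.3% higher and 19.4% lower at 5-7 mm. POLD1, the catalytic subunit of polymerase delta, differed by -1.02 ± 0.087 at 2 mm (adjusted p = 5.17e-06) and 0.72 ± 0.087 at 5-7 mm. PCNA differed by -0.48 ± 0.10 (adjusted p = 0.00851) and 1.002 ± 0.10, and the RPA subunit gene RPA2A by -0.56 ± 0.10 and 1.34 ± 0.10. RPA1B, for a large RPA subunit, differed by -0.38 ± 0.091 (adjusted p = 0.0146) and 1.21 ± 0.091. RPA1B failed at 2 mm when wild-type replicate 2, osmads1 replicate 2 or osmads1 replicate 3 was dropped (adjusted p of at most 0.0719). The gene lower at 5-7 mm was the RPA subunit gene RPA32-3 (-0.50 ± 0.072, adjusted p = 0.000248), named because it was the single exception and chosen after its value was seen.

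Regulators of entry into S phase, histone H2B genes and genes of mitosis had smaller differences than the MCM genes. Of 13 G1 to S regulators 0 were higher and 1 lower at 2 mm (median -0.15), and 5 were higher and 1 lower at 5-7 mm (median 0.0080). These are retinoblastoma-related, D-type cyclin and CDKA kinase genes. No E2F symbol of the list matched a gene, so E2F genes were not analysed here. Over all genes 12.1% were called lower and 10.2% higher at 2 mm, so 1 of 13 lower is near the general share. At 5-7 mm 13.3% of all genes were called higher and 19.4% lower. The retinoblastoma-related gene RBR1 differed by -0.32 ± 0.11 at 2 mm (adjusted p = 0.0918) and rose by 0.65 ± 0.11 at 5-7 mm, but its other probe set gave 0.12 there and did not pass. The D-type cyclin gene CYCD4-2 fell by 0.33 at 2 mm and rose by 0.48 at 5-7 mm, and CYCD5-3 and CYCD2-2 rose by 0.59 and 0.58 at 5-7 mm. The gene lower at 5-7 mm was CYCD5-2 (-0.37 ± 0.069, adjusted p = 0.00156), another D-type cyclin gene, named as the single exception after its value was seen. CYCD4-2 held its 2 mm call on dropping osmads1 replicate 1 or wild-type replicate 3 alone (adjusted p of at most 0.12 for the others). TK, the 1 measured gene of the nucleotide supply list, rose by 0.36 ± 0.086 at 5-7 mm (adjusted p = 0.00889).

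Among 5 genes for histone H2B, 3 were lower and 0 higher at 2 mm (median -0.23), and 2 were higher and 0 lower at 5-7 mm (median 0.21). H2B.10 differed by -0.30 ± 0.076 and 0.27 ± 0.076. At 2 mm it failed on dropping any array but osmads1 replicate 1 and wild-type replicate 3 (adjusted p of at most 0.0884), and at 5-7 mm on dropping wild-type replicate 3, osmads1 replicate 1 or osmads1 replicate 3 (at most 0.0897). H2B genes are near-identical copies, and probe sets may not keep them apart. Of 6 mitosis genes, B-type cyclins, CDKB2-1 and the centromere histone CENH3, 0 were higher and 1 lower at 2 mm (median -0.13) and 0 were called at 5-7 mm by limma (median -0.057). Over all genes 12.1% were called lower at 2 mm and 13.3% higher at 5-7 mm. The 1 mitosis gene lower at 2 mm is near that share. CENH3 fell by 0.26 ± 0.066 at 2 mm (adjusted p = 0.0223), which failed on dropping any of the 2 mm arrays in turn except wild-type replicate 3 (adjusted p of at most 0.0925). The 2 mm differences of the 6 mitosis genes ran from -0.26 to 0.13 and those at 5-7 mm from -0.15 to 0.10, outside the ranges of the MCM genes at both lengths. Whether a list differs from the MCM genes was not tested.

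**Figure D5:**
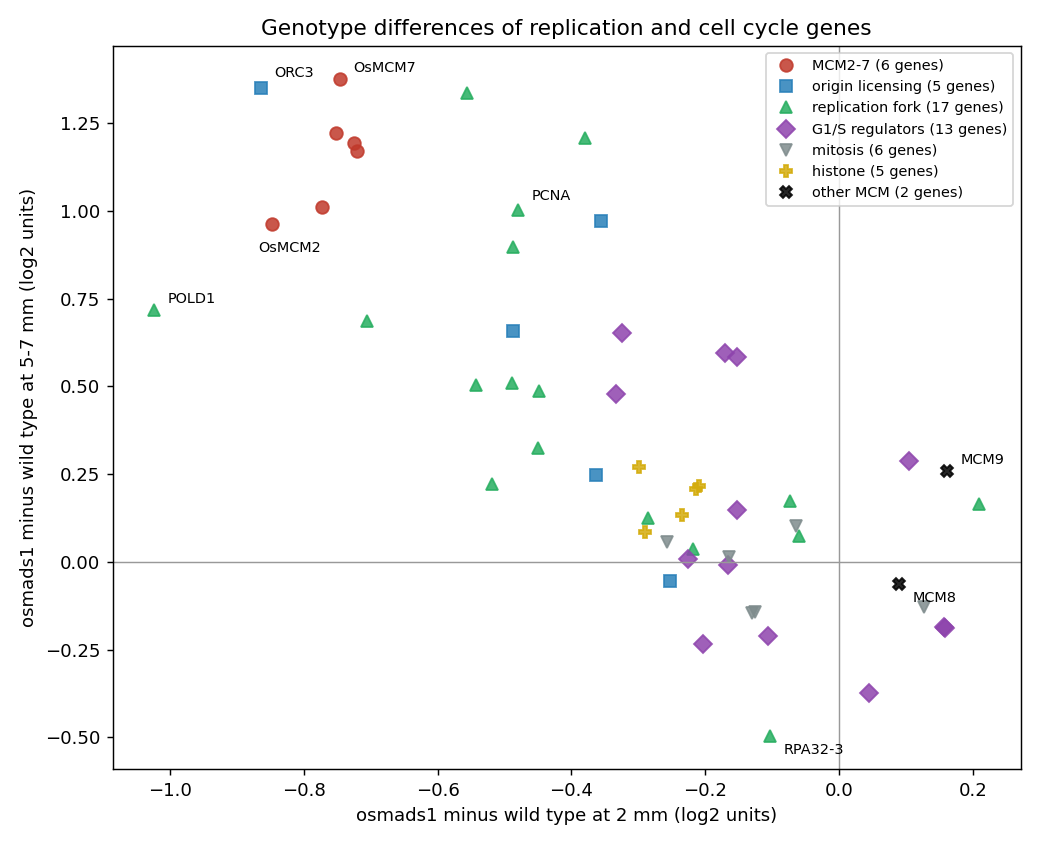
Difference osmads1 minus wild type in log2 units at 2 mm (horizontal axis) and at 5-7 mm (vertical axis) of each measured gene of 7 lists (colours and symbols). The 6 MCM genes lie close together at the upper left, near ORC3, while the 6 mitosis genes and MCM8 and MCM9 lie close to 0 on both axes.

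The genes with the pattern most like that of the 6 MCM genes were found by correlation with the mean MCM level over the 12 arrays, after subtracting each gene's mean at each length. Among 2450 named genes outside the set, the 8 with the highest correlation were HATB (0.992), OsRFC5 (0.99), CML20 (0.987), OsEXO-1 (0.986), OsORC3 (0.984), OsRan1 (0.981), OsRPN7 (0.981) and OsDi19-4 (0.979). Each MCM gene correlated with the mean of the other 5 at 0.982 (OsMCM2) to 0.998 (OsMCM6). HATB differed by -0.87 ± 0.10 at 2 mm and 1.24 ± 0.10 at 5-7 mm, of the same size as the MCM genes, and OsEXO-1, named for an exonuclease, by -0.67 ± 0.091 and 1.04 ± 0.091. OsRan1, for a small GTPase of nuclear transport, and OsRPN7, for a proteasome subunit, had far smaller differences, neither of which passed at 2 mm. OsRan1 differed by -0.16 at 2 mm (adjusted p = 0.145) and 0.25 at 5-7 mm, and OsRPN7 by -0.15 (adjusted p = 0.169) and 0.24. The 5-7 mm call of OsRan1 failed on dropping wild-type replicate 3 (adjusted p = 0.0539) and with the 6 arrays of that length alone (0.0554). That of OsRPN7 failed with those 6 arrays (0.0546) and with a replicate block (0.053). These correlations are descriptions, and the arrays share their normalization.

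Some measures of RNA quality and of other cell types moved with genotype at 2 mm. The 3' minus 5' reading of control transcripts depends on how intact the RNA was and how it was labelled. At 2 mm it was lower on all 3 osmads1 arrays than on any wild-type array in 4 of 7 pairs of probe sets. The gap was largest for a GAPDH pair (2.58 ± 0.059 against 3.58 ± 0.042). Another GAPDH pair overlapped at 2 mm (0.075 ± 0.21 against 0.17 ± 0.034). So did an actin pair (5.99 ± 0.17 against 6.12 ± 0.066), while the other actin pair did not. At 5-7 mm the genotypes overlapped in 6 of 7 pairs, and an EF1a pair was higher in osmads1 (-2.65 ± 0.068 against -3.06 ± 0.085). Of 3 tapetum and pollen genes (OsC6, RAFTIN1 and CYP703A3) 3 were higher in osmads1 at 2 mm. Their mean level was 5.29 to 5.61 on osmads1 arrays and 3.39 to 3.51 on wild-type arrays. At 5-7 mm 0 were called by limma (4.19 to 4.33 and 4.30 to 4.36). CYP703A3 averaged 2.96 in wild type at 2 mm, and 3.70 (osmads1) and 3.83 (wild type) at 5-7 mm. These means lay below the reporter control upper quartiles of 3.302 and 3.88. OsC6 and RAFTIN1 lay above the quartile of each length in every group. Of 4 leaf genes 2, PORA and PSAG, were higher at 2 mm (mean level 6.62 to 7.19 against 5.96 to 6.19). At 5-7 mm 1 was higher, CAB2R, with a mean level of the list of 6.86 to 7.22 against 6.34 to 6.64. The leaf genes RBCS, PSAG and PORA differed by -0.094, -0.066 and 0.016 at 5-7 mm, and the median of the list was -0.025. The higher list mean at that length therefore rested on CAB2R. The 5 panicle and floral meristem genes (OsMADS14, OsMADS15, OsMADS34, RFL and OSH1) were well measured in every group, with a mean level of 10.49 or more, and 4 of them were higher in osmads1 at 5-7 mm and 1 lower at 2 mm. Beside these marker counts, 10.2% of all genes were called higher and 12.1% lower at 2 mm, and 13.3% higher at 5-7 mm. The seed storage gene GLUA1 had group means of 2.81 to 2.996, in the range of reporter controls. The other seed gene, WX, had group means of 4.94 to 5.32, above the upper quartiles of those controls. Neither seed gene was called between genotypes at either length. The part of these measures in the MCM differences was not tested.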

How the data were processed

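Per the labels' protocols, total RNA was isolated with Trizol and biotinylated with Affymetrix's 3' IVT Express kit. The authors deposited log2 levels per probe set, for which the submitters' processing notes name RMA and Partek, without a version. Such levels carry no detection call, and RMA compresses the differences of dim probe sets. The number of arrays, 12, limits the precision.

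The 187 control probe sets were left out and 57194 were tested without a filter. The platform annotation gave 1 symbol for 22436, several for 95 and none for 34663. Names and chromosomes came from the reference gene table (all 22436 matched). A gene was represented by its brightest probe set.

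limma 3.58.1 in R 4.3.3 fitted 1 mean per group to all 12 arrays with eBayes (two-sided tests, residual degrees of freedom 8, prior 4.74), and Benjamini-Hochberg adjustment ran over all tested probe sets. The fit was tried on simulated data. The noise was drawn independently for each probe set and array, so deviations shared by an array were not covered. Figures were drawn with matplotlib 3.10.9.

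The named genes are OsMADS1, the 6 members, up to 4 genes per list with the largest interaction among called genes, and the 8 most similar patterns. The members and lists were chosen with earlier results of these data known. Many list symbols matched no gene and were not used here. Same-numbered arrays of the genotypes had deviations from their group means whose correlation was 0.014 to 0.084 (2 mm) and -0.068 to 0.074 (5-7 mm). Arrays of different number gave -0.074 to 0.027 (2 mm) and -0.104 to 0.128 (5-7 mm). With 3 arrays in a group, this check cannot decide whether the numbers pair the samples. Alternatives were quantile normalization, median centring, a filter on dim probe sets, a trended robust prior, array weights, a replicate block, each length's own arrays, other probe sets and leaving out each array. No second probe set was assigned to an MCM gene.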

Additional observations from a re-analysis of the deposited data

Results flagged for a closer look

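The genotype difference changed between lengths, by the test of the interaction in limma, for all 6 MCM genes and for most other genes named above. For the others this followed largely from how they were chosen. List genes were named for the largest interaction among called genes, and the genes of like pattern for sharing the MCM pattern. That most of them passed is therefore no finding by itself. The estimates, the 5-7 mm difference minus the 2 mm difference in log2 units, were 1.81 for OsMCM2, 1.78 for OsMCM3, 1.89 for OsMCM4, 1.97 for OsMCM5, 1.92 for OsMCM6 and 2.12 for OsMCM7. Among origin recognition genes they were 2.22 for ORC3 (adjusted p = 2.38e-06), 1.33 for ORC4, 1.15 for ORC5 and 0.61 for ORC1. Among fork genes they were 1.89 for RPA2A, 1.74 for POLD1, 1.59 for RPA1B, 1.48 for PCNA and 1.38 for OsRFC5. RPA32-3 changed the other way, with -0.39 (adjusted p = 0.0135).

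Of the regulators, RBR1 had an estimate of 0.98 (and -0.16 from its other probe set, which did not pass), CYCD4-2 of 0.81, CYCD5-3 of 0.76 and CYCD2-2 of 0.74. The D-type cyclin genes CYCD5-2 (-0.42, adjusted p = 0.007) and CYCD4;1 (-0.34, adjusted p = 0.0226) were called the other way, so that 4 of the 13 regulators had a higher and 2 a lower value. Over all genes 17.2% were called with a higher and 19.2% with a lower value. CYCD5-2, CYCD4;1 and RPA32-3 were chosen after their values were seen. TK had 0.59, H2B.10 0.57 and CENH3 0.31 (adjusted p = 0.0288). CENH3 did not pass on dropping wild-type replicate 1, wild-type replicate 2 or osmads1 replicate 3 at 2 mm, or either replicate 3 at 5-7 mm (adjusted p of at most 0.0731). The genes of like pattern had 2.11 (HATB), 1.17 (CML20), 1.71 (OsEXO-1), 0.42 (OsRan1), 0.39 (OsRPN7) and 0.91 (OsDi19-4).

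The mutated gene OsMADS1 itself had an estimate of -1.49 (adjusted p = 0.027), which did not pass under a trended robust prior (0.0841) or on dropping wild-type replicate 1, osmads1 replicate 1 or osmads1 replicate 3 at 2 mm, or wild-type replicate 1, osmads1 replicate 2 or osmads1 replicate 3 at 5-7 mm (at most 0.0685).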

How the results depend on the processing

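Under all alternatives run, 19, 19 and 18 in number, the 2 mm, 5-7 mm and interaction calls of the 6 MCM genes held in direction and threshold. Not all of these could change the direction. For the call at a single length, dropping an array of the other length changed only the error and adjusted p. The filter on dim probe sets, the trended robust prior, the replicate block and each length's own arrays also left the estimates as they were. Differences ran from -0.93 to -0.62, 0.90 to 1.48 and 1.66 to 2.22, with adjusted p of at most 0.0133, 0.000789 and 0.000111. The replicate block left 6 of 6 MCM genes called in all 3 and gave 5643 called probe sets at 2 mm against 6737, 10894 at 5-7 mm against 12285 and 11345 for the interaction against 12750. Of the genes outside the set, the block lost the 2 mm calls of ORC4, RPA1B, CENH3 and H2B.10, the 5-7 mm calls of MCM9 and OsRPN7 and the interaction of CENH3. Fitting each length's own arrays lost ORC4 at 2 mm and MCM9, H2B.10, OsRan1 and OsRPN7 at 5-7 mm (adjusted p of 0.0546 to 0.0721), median centring lost ORC4 at 2 mm (0.0613), and array weights lost MCM9 at 5-7 mm (0.0553). Array weights gave 10552 called probe sets at 2 mm.

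Results between lengths depended on the scaling. In wild type, 42143 probe sets were higher and 3581 lower as deposited, 15164 and 13577 after quantile normalization (28741 in all) and 9368 and 29402 after median centring, with medians over all probe sets of 0.61, 0.019 and -0.26. In osmads1 these were 42388 and 3121, 15657 and 13814 (29471 in all), and 9448 and 28818. Among probe sets above the median level 26234 were called in wild type and 25719 in osmads1, since fewer were tested. The wild-type MCM differences after quantile normalization were -0.43 (OsMCM2), -0.22 (OsMCM3), 0.014 (OsMCM4), -0.33 (OsMCM5), 0.33 (OsMCM6) and -0.022 (OsMCM7), with 2 of 6 genes called, 1 each way. After median centring they were -0.74 (OsMCM2), -0.47 (OsMCM3), -0.22 (OsMCM4), -0.58 (OsMCM5), 0.12 (OsMCM6, adjusted p = 0.356) and -0.25 (OsMCM7), with 3 called, all lower. Array weights called 6 of 6 higher in wild type, OsMCM2 (0.19) and OsMCM5 (0.37) included, against 4 with equal weights, and OsMCM5 also passed without wild-type replicate 3 at 5-7 mm (0.45). The other probe set of RBR1 reversed its interaction (-0.16) and 1 other probe set of MCM9 its 5-7 mm difference (-0.11). The cause was not tested. Of the alternative values of called genes outside the MCM set, 1096 kept their call, 64 did not pass and 2 changed direction. This tally includes settings that could not change an estimate. It leaves out CYCD5-2, CYCD4;1, RPA32-3 and the marker genes, for which no alternative was run. Other probe sets were not looked up for HATB, CML20, OsEXO-1, OsRan1, OsRPN7 and OsDi19-4.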
